A study of Macaca mulatta with 24 samples.

Results

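Histone deacetylases were followed in whole blood of rhesus macaques before and after total body irradiation. The rule took every probe that the scanner output names as HDAC1, HDAC2, HDAC3, HDAC4, HDAC5, HDAC6, HDAC7, HDAC9, HDAC10 or HDAC11. It found 11 of the 43603 probes on the array, for 7 of the 10 genes. The other 3 genes, HDAC4, HDAC9 and HDAC10, carry no such gene name on this array, and 6 probes were assigned to them through the probe description in the same output. These are given separately and are not in the counts for the 11 probes. RNA of 24 blood samples was hybridized to 1-colour arrays, whose scanner output gives a rhesus design where the methods of the study name a human one. The pre-irradiation group has 7 arrays, and the groups sampled after a dose of 4 Gy have 4 (day 3), 6 (day 5) and 7 (day 7). The animals were adult Chinese-origin Macaca mulatta of both sexes, with no allele or drug treatment named. The same replicate number marks the same animal, so that each array after irradiation has a pre-irradiation array of its own animal. The main fits did not use this pairing, which entered as an alternative with the animal as a block. The sample labels name X-rays and put the first sample at day 0, while the methods of the study name cobalt gamma rays and blood drawn before the day of exposure. Globin transcripts had been depleted from the RNA. The level used here is the log2 of the processed signal, which the scanner software had corrected for a background surface, shifted so that every array has the median of the middle array.

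Histone deacetylases remove acetyl groups from lysines of histones and of other proteins. Class I enzymes (HDAC1, HDAC2, HDAC3) are nuclear and work in repressor complexes such as SIN3, NuRD, CoREST and NCOR/SMRT. Class IIa enzymes (HDAC4, HDAC5, HDAC7, HDAC9) have little catalytic activity of their own, bind MEF2 factors and leave the nucleus when kinases phosphorylate them. Class IIb holds HDAC6, a cytoplasmic enzyme that acts on tubulin, cortactin and HSP90 and binds ubiquitin, and HDAC10, which acts on polyamines. HDAC11 is the only class IV enzyme and removes long fatty acyl groups.

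The probes are 60-base oligonucleotides, and a level is that of the short stretch a probe covers. The 6 shown here carry part of the changes described below, and in each a reading frame is open across all 60 bases. In the HDAC1 probe the capitals mark the codons of the histidine pair of the class I active site. Coordinates are on rheMac2, the build named by the scanner output. The HDAC1 probe lies on chr1:35092051-35092568 (plus strand), a span of 518 bases and so across an exon junction. The HDAC2 probe lies on chr4:149978026-149978085 (plus strand), and the HDAC6 probe on chrX:46689315-46689461 (plus strand), at position 3623 of its transcript, in the part that encodes the ubiquitin-binding zinc finger. The 2 HDAC11 probes lie on chr2:47537230-47551555 (minus strand, across a junction), at position 250 of the transcript, and on chr2:47529228-47529287, at position 953. The HDAC4 probe lies on chr12:102935620-102935679 (minus strand), at position 3236.
HDAC1: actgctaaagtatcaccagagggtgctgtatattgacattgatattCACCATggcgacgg
HDAC2: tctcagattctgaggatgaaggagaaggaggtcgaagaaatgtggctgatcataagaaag
HDAC6: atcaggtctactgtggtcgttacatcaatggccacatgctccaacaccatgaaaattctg
HDAC11 (position 250): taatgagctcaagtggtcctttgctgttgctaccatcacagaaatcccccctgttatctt
HDAC11 (position 953): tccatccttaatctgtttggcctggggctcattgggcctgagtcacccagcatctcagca
HDAC4: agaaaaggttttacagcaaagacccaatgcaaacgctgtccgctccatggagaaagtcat

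The family moved in both directions. HDAC1, HDAC2, HDAC11 and HDAC9 were lower on at least 1 day after irradiation. HDAC5, HDAC4 and the dimmer of the 2 HDAC6 probes were higher on at least 1 day. The brighter HDAC6 probe, HDAC3, HDAC7 and HDAC10 passed the test on no day. A probe entered the test where the scanner software marked it as well above background on 4 or more arrays, which held for 10 of the 11 probes. For each day limma set its arrays against the 7 pre-irradiation arrays, and a probe was called at an adjusted p (Benjamini-Hochberg, over all probes tested) under 0.005. At day 3 the test called 5 of the 10 probes (2 higher, 3 lower), beside 13.5% of all 27106 probes tested. At day 5 it called 5 (1 higher, 4 lower) beside 16.8%, and at day 7 it called 2, both lower, beside 10.9%. By direction, the calls among all probes were 5.44% higher and 8.05% lower at day 3, 7.16% and 9.6% at day 5, and 3.6% and 7.29% at day 7. The median log2 change of the 10 probes was −0.37, −0.13 and −0.10 at the 3 days, where that of all probes lay between 0.015 and 0.023. Of the 4 tested probes of HDAC4, HDAC9 and HDAC10, the test called 2, 3 and 2, one of which on each day is an HDAC4 probe that entered the test only through the arrays after irradiation, where it is high. Likewise 1 of the called probes among the 10 on each day, of HDAC11, entered only through the pre-irradiation arrays. The 3 comparisons share the 7 pre-irradiation arrays. With the animal as a block, 1 of the 10 probes was called at day 3 (2.81% of all probes), 4 at day 5 (15.5%) and 2 at day 7 (8.59%). The probe called at day 3 was the HDAC11 probe that entered only through the pre-irradiation arrays. After normexp background correction of the raw signals in place of the scanner's own, none of the 10 was called on any day, beside 0.513%, 0.882% and 1.17% of all probes. Under it the log2 difference of HDAC1 at day 5 was −0.06.

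**Figure D1:**
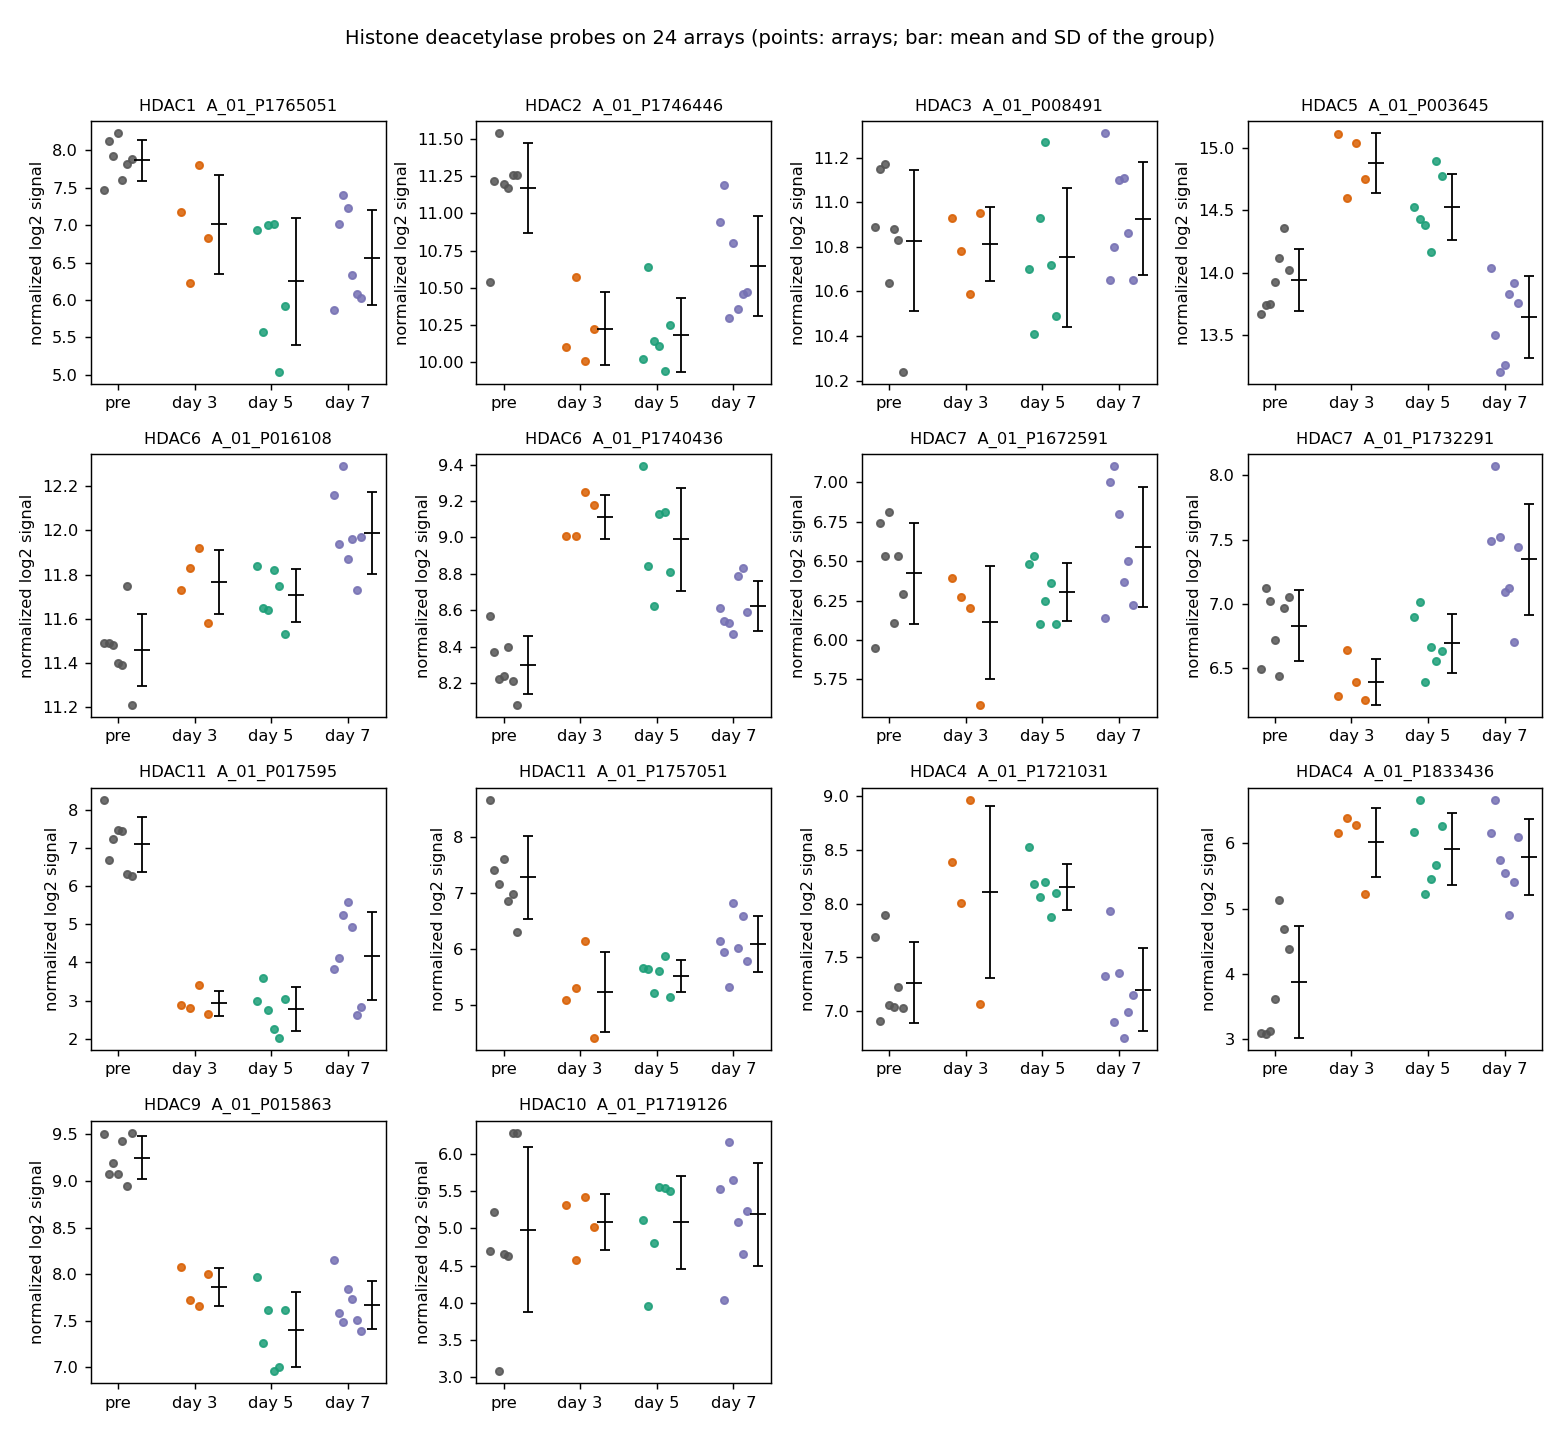
Normalized log2 signal (vertical axis) of the 14 tested histone deacetylase probes on each array, by group (horizontal axis: pre-irradiation, day 3, day 5, day 7). Points are arrays and the bar is the group mean with its SD. The HDAC9 and HDAC11 probes lie below all pre-irradiation arrays on nearly every later array, and HDAC3 overlaps in all groups.

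Arrays and blood cells differed between the groups beyond the deacetylases. The day 3 and day 5 arrays were all scanned in session 2, with only 1 pre-irradiation array (replicate 5), while the other 6 pre-irradiation arrays and 6 of the day 7 arrays were scanned in session 1. A fit with the session as a block therefore rests on replicate 5 for days 3 and 5, and it called 0 of the 10 probes at day 3, beside 0.137% of all probes, and 1 at day 5, beside 1.42%. Markers of blood cells also moved, and in bulk blood fewer cells of a type and less RNA per cell cannot be told apart. All 11 tested B cell markers fell at days 3 and 5 and 10 at day 7, with a median log2 change of −3.53, −3.92 and −3.67, and their mean level ran from 10.61 to 10.95 before irradiation and from 6.59 to 7.91 on the later arrays. VPREB3, a B cell marker, was well above background on 7 of 7 arrays before irradiation and on 0 arrays at each later day. Of 16 erythroid markers, 11, 14 and 12 fell. Of 15 T cell markers, 4, 2 and 0 fell. All 11 platelet markers rose at day 3, 3 at day 5 and 0 at day 7. Of 9 monocyte markers 3, 3 and 1 rose, of 12 neutrophil markers 2 on each day, and of 11 NK and cytotoxic markers 0. Beside these counts, 5.96% of all genes, by their brightest probe, rose and 7.6% fell at day 3. At day 5 it was 6.24% and 9.16%, and at day 7 it was 2.68% and 7.22%. The part of the blood cells in the changes of the deacetylases was not tested.

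**Figure D2:**
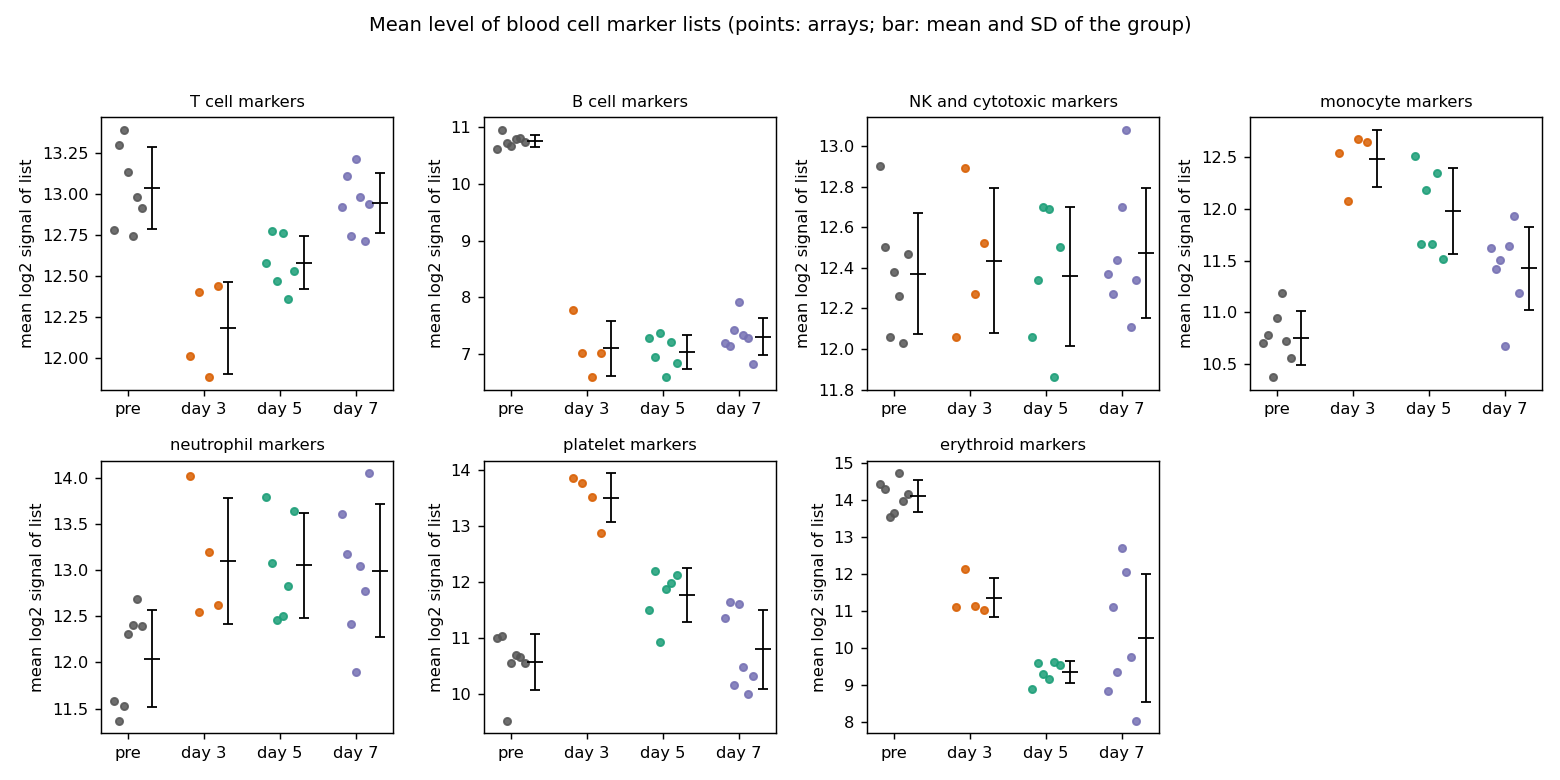
Mean log2 signal of 7 lists of blood cell markers (vertical axis) on each array, by group. Points are arrays and the bar is the mean with its SD. The B cell list lies between 10.61 and 10.95 before irradiation and at most at 7.91 on every later array, and the platelet list is highest at day 3.

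HDAC1, a catalytic subunit of SIN3, NuRD and CoREST, had log2 signals from 7.47 to 8.23 (median 7.89) on the 7 pre-irradiation arrays. At day 3 the 4 arrays read 6.23, 6.83, 7.18 and 7.81, and the highest of them lay inside the pre-irradiation range. The levels ran from 5.04 to 7.01 (median 6.43) at day 5 and from 5.87 to 7.40 (median 6.33) at day 7, so that no array of these 2 days reached the lowest pre-irradiation array. HDAC1 fell by 1.62 on the log2 scale at day 5 (SE 0.316, 3.07-fold, adjusted p = 0.00148) and fell by 1.30 at day 7 (SE 0.252, 2.46-fold, adjusted p = 0.00163). The difference of −0.85 at day 3 did not pass (adjusted p = 0.0268). Within session 1 alone the day 7 difference was −1.31 (adjusted p = 0.00603). At day 5 the call was lost without replicate 2 (adjusted p = 0.00935) and without replicate 7 (0.00844), and at day 7 without replicate 1, 5, 6 or 7 (0.00522 to 0.00894). With the session as a block the day 5 call was lost (−1.35, adjusted p = 0.231). The session 2 pre-irradiation array read 7.60, and 6 of 6 day 5 arrays were below it. Both the fit and this comparison rest on that 1 array, and the part of the session was not tested. At day 5 the probe was well above background on 5 of 6 arrays.

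Another probe, described as HDAC1 and placed on chromosome X, followed the HDAC1 probe closely over the 24 arrays (Pearson r = 0.984). It fell by 1.47 at day 5 (adjusted p = 0.00145), where 5 of 6 arrays were well above background. That call was lost with the animal as a block (−1.48, adjusted p = 0.00728) and with the session as a block (adjusted p = 0.18), and it held in 4 of the 7 fits without 1 animal. Its differences were −0.86 at day 3 (adjusted p = 0.0217) and −1.07 at day 7 (adjusted p = 0.00505). The transcripts listed for the HDAC1 probe include those of this copy, so that the 2 signals may share RNA.

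HDAC2, the close paralog of HDAC1 in the same complexes, had log2 signals from 10.54 to 11.54 (median 11.22) before irradiation. The lowest of these, replicate 1, stood apart from the other 6, which began at 11.17. At day 3 the arrays read 10.01, 10.10, 10.22 and 10.57, and at day 5 they ran from 9.94 to 10.64 (median 10.13). Thus 3 of 4 and 5 of 6 arrays lay under the whole pre-irradiation group. HDAC2 fell by 0.95 on the log2 scale at day 3 (SE 0.194, 1.93-fold, adjusted p = 0.00351) and by 0.99 at day 5 (SE 0.169, 1.98-fold, adjusted p = 0.000595). At day 7 it ran from 10.30 to 11.19 (median 10.47), overlapping the pre-irradiation range, with a difference of −0.53 (adjusted p = 0.0436). With the animal as a block the day 3 change was −0.83 (adjusted p = 0.0305), and the day 3 call held in 1 of the 7 fits that left out 1 animal (adjusted p 0.00498 to 0.0276). The day 5 call held in all 7 of them. With the session as a block neither call held (day 3 difference −0.949, adjusted p = 0.159; day 5 adjusted p = 0.103).

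HDAC3, the catalytic subunit of the NCOR/SMRT complexes, overlapped in all groups. The log2 signal ran from 10.24 to 11.17 (median 10.88) before irradiation, from 10.59 to 10.95 at day 3, from 10.41 to 11.27 at day 5 and from 10.65 to 11.31 at day 7. The differences were −0.02 (SE 0.191), −0.08 (SE 0.184) and 0.10 (SE 0.171), with adjusted p of 0.953, 0.777 and 0.709. A p of this size does not show that the level was equal.

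**Figure D3:**
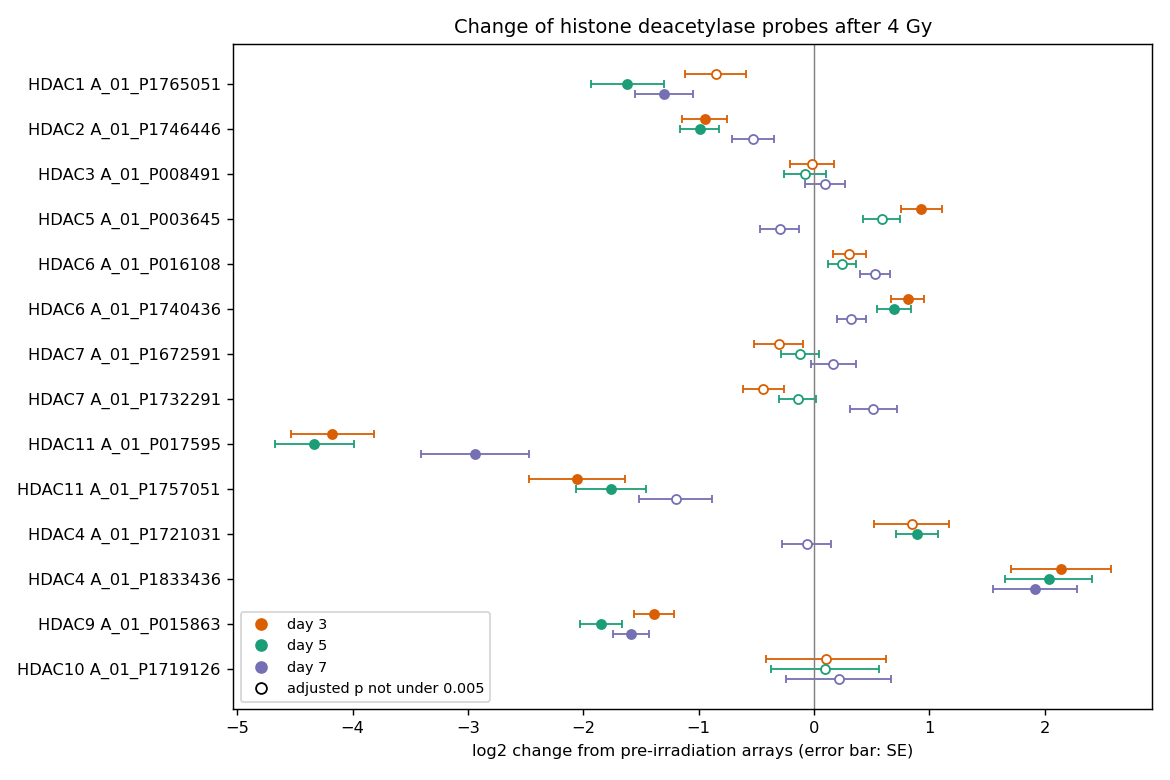
Log2 change from the pre-irradiation arrays (horizontal axis; error bar, SE from limma) of the 14 tested probes (vertical axis) at day 3, 5 and 7. Filled points have an adjusted p under 0.005 and open points do not. For HDAC11 A_01_P017595 at days 3 and 5 and HDAC4 A_01_P1833436 one group was not well above background, and the points there are fitted values where the text gives bounds. Falls are seen in HDAC11, HDAC9, HDAC1 and HDAC2, and rises in HDAC4, HDAC5 and one HDAC6 probe.

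Among class IIa genes HDAC5, a MEF2 repressor, was higher early and not at day 7. It ran from 13.67 to 14.36 (median 13.93) before irradiation, and the 4 day 3 arrays read 14.60, 14.75, 15.04 and 15.11, all above that range. It rose by 0.93 at day 3 (SE 0.177, 1.91-fold, adjusted p = 0.00241). At day 5 it ran from 14.17 to 14.89 (median 14.48), with 5 of 6 above the pre-irradiation range, but the difference of 0.59 did not pass (SE 0.159, adjusted p = 0.0113), except after quantile normalization (0.80, adjusted p = 0.00291). At day 7 it ran from 13.21 to 14.04 (median 13.76), and 3 of 7 arrays lay below the pre-irradiation group (difference −0.30, adjusted p = 0.211). With the animal as a block the day 3 change was 1.03 (adjusted p = 0.0153), and the call held in 2 of the 7 fits without 1 animal (adjusted p 0.00175 to 0.0201). With the session as a block the day 3 call was lost (0.75, adjusted p = 0.205). The pre-irradiation array of session 2 read 14.12, and all 4 day 3 and all 6 day 5 arrays were above it. Both the fit and this comparison rest on that 1 array, and the part of the session was not tested.

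HDAC4 has a probe at transcript position 3236 and one at position 5047. On the first, the brighter, the signal ran from 6.91 to 7.89 (median 7.06) before irradiation and from 7.88 to 8.53 (median 8.14) at day 5, where 5 of 6 arrays were above the pre-irradiation range. It rose at day 5 by 0.89 (SE 0.183, 1.86-fold, adjusted p = 0.00204). At day 3 the arrays read 7.07, 8.01, 8.39 and 8.97 (difference 0.85, adjusted p = 0.0594), and at day 7 they ran from 6.75 to 7.93, with a difference of −0.06 (adjusted p = 0.849). With the animal as a block the day 5 change was 0.86 (adjusted p = 0.00637), and it was called in 3 of the 7 fits without 1 animal (adjusted p 0.00149 to 0.0109). The call was also lost with the session as a block (1.12, adjusted p = 0.0837) and with normexp background (0.58, adjusted p = 0.0907).

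The second HDAC4 probe was not well above background on any of the 7 pre-irradiation arrays and was so on all later ones. It passed the filter only through the groups where it is high, so its adjusted p supports nothing by itself. It was at least 1.65-fold higher at day 3 (adjusted p = 0.00316), at least 1.54-fold at day 5 (adjusted p = 0.000987) and at least 1.42-fold at day 7 (adjusted p = 0.00137). In these bounds the dim pre-irradiation arrays stand at the lowest signal that counts as well above background on each, or at the probe's own if higher. Over 24 arrays the 2 probes had a Pearson r of 0.44. Under the animal block the call was lost at day 3 (adjusted p = 0.0101) and day 7 (0.00855), with the session as a block at days 3 and 5 (0.479 and 0.52), and 2, 5 and 2 of the 7 fits without 1 animal kept it at days 3, 5 and 7. With normexp background the fitted log2 differences were 0.47, 0.79 and 0.41, at days 3 and 7 below the bounds given. The pre-irradiation array of session 2 read 5.13, above the other 6 (3.08 to 4.69).

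HDAC9, whose shorter transcripts that end before the catalytic domain are known as MITR, fell on all 3 days. Its bright probe ran from 8.95 to 9.52 (median 9.19) before irradiation. The day 3 arrays read 7.66, 7.72, 8.00 and 8.08, those of day 5 ran from 6.96 to 7.97 (median 7.44) and those of day 7 from 7.39 to 8.15 (median 7.58). Every array after irradiation lay below every pre-irradiation array. HDAC9 fell by 1.39 (SE 0.17, 2.61-fold, adjusted p = 0.000242), 1.85 (SE 0.186, 3.60-fold, adjusted p = 9.13e-06) and 1.58 (SE 0.156, 2.99-fold, adjusted p = 1.05e-05) at days 3, 5 and 7. It was called in all 7 fits without 1 animal on each day and with the animal as a block (adjusted p = 0.00497, 0.000132 and 0.000302). With normexp background the call was lost on all 3 days (differences −0.85, −0.90 and −0.95, adjusted p = 0.0684, 0.0321 and 0.0132). With the session as a block the changes were −1.57 and −2.03 at days 3 and 5 (adjusted p = 0.0237 and 0.00626), and within session 1 the day 7 change was −1.56 (adjusted p = 0.000119). The 3 genes most like it over the 24 arrays were ZMAT2, SOX5 and BANK1, and the groups themselves set much of this likeness.

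The other 2 HDAC9 probes were well above background on none of the 24 arrays. HDAC9 lies on the minus strand, and on rheMac2 the bright probe (chr3:107470411-107470470) is upstream of both, by 91.7 and 329 kb. The dark probes are at chr3:107378627-107378686 and chr3:107141384-107141443. The transcript named for the bright probe, at position 4412, differs from those of the dark ones. One more probe of this locus, 291.5 kb downstream and described as HDAC5-like, was well above background on 1 pre-irradiation and 1 day 7 array.

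**Figure D4:**
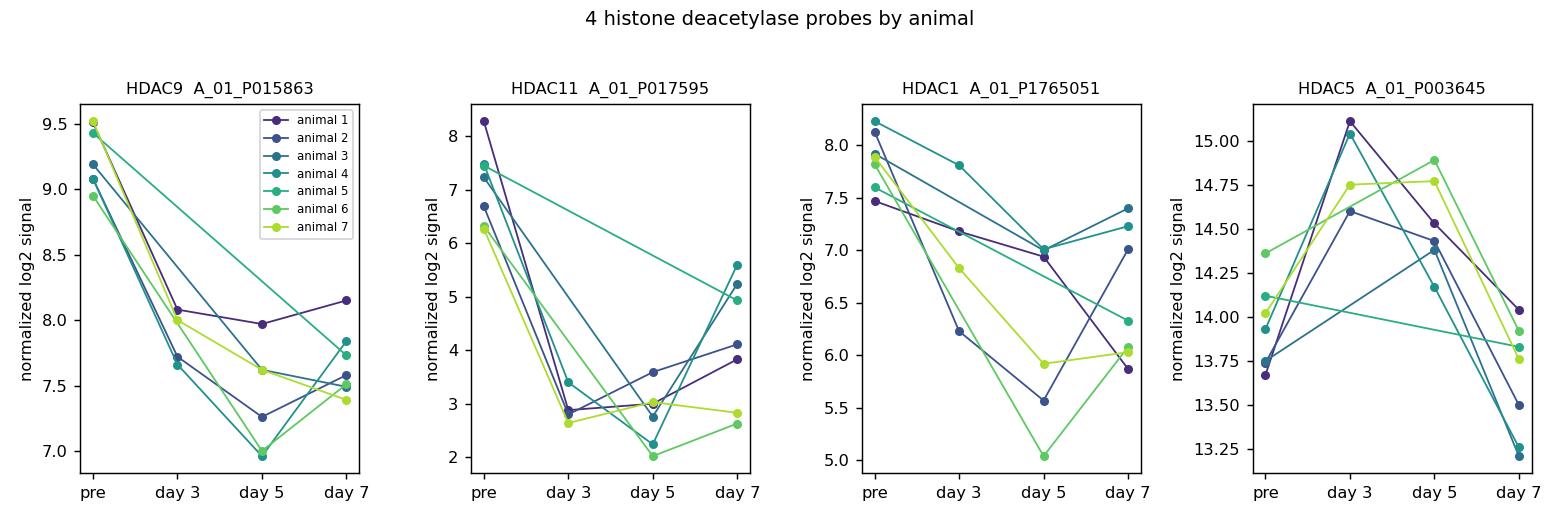
Normalized log2 signal (vertical axis) of 4 probes (HDAC9, HDAC11, HDAC1 and HDAC5) by animal across the groups (horizontal axis). Each line joins the arrays of 1 animal. HDAC9 falls in all 7 animals, and HDAC5 peaks at day 3 or day 5 in the 6 animals that have such arrays.

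HDAC7, a class IIa gene of lymphoid and endothelial cells, passed on no day. Its brighter probe, at position 604, ran from 6.44 to 7.12 before irradiation and read 6.25, 6.28, 6.39 and 6.64 at day 3, with 3 of 4 arrays below the pre-irradiation group. At day 7 it ran from 6.70 to 8.07, with 4 of 7 arrays above that group. The log2 differences were −0.44 (adjusted p = 0.0737), −0.14 (0.522) and 0.52 (0.0679) at the 3 days. On the probe at position 2671 they were −0.31, −0.12 and 0.17, with adjusted p of 0.281, 0.605 and 0.553.

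Of the class IIb genes, HDAC6 rose on 1 of its 2 probes. The probe over the zinc finger ran from 8.08 to 8.57 (median 8.24) before irradiation. The 4 day 3 arrays read 9.01, 9.01, 9.18 and 9.25 and the 6 day 5 arrays ran from 8.62 to 9.39, each of them above the pre-irradiation group. It rose by 0.81 at day 3 (SE 0.142, 1.76-fold, adjusted p = 0.00152) and by 0.69 at day 5 (SE 0.147, 1.61-fold, adjusted p = 0.00263). At day 7 it ran from 8.47 to 8.83 with 4 of 7 arrays above (difference 0.32, adjusted p = 0.0639). With the animal as a block the changes were 0.80 (adjusted p = 0.0316) and 0.71 (0.00503), and 4 of 7 and 2 of 7 fits without 1 animal kept the call. With the session as a block neither call held (day 3 difference 0.714, adjusted p = 0.141, and day 5 adjusted p = 0.256).

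The brighter HDAC6 probe, at position 4078 (chrX:46690108-46690167), had its highest levels at day 7. It ran from 11.21 to 11.75 (median 11.48) before irradiation, and from 11.73 to 12.29 (median 11.96) at day 7, where 6 of 7 lay above the pre-irradiation range. The day 7 difference of 0.53 (SE 0.131, adjusted p = 0.00814) missed the threshold. It passed after quantile normalization (0.66, adjusted p = 0.00394) and when all 24 arrays were fitted together (0.53, adjusted p = 0.000976). In all, 4 of 19 alternative fits called it, and 0 of the 7 without 1 animal did (adjusted p 0.00584 to 0.0343). At days 3 and 5 the differences were 0.31 and 0.25 (adjusted p = 0.113 and 0.126). The 2 HDAC6 probes correlated over the arrays with Pearson r = 0.356. HDAC10 was dim, well above background on 2 of 7 pre-irradiation arrays, 3 of 4, 4 of 6 and 6 of 7 later arrays. Its differences of 0.11, 0.10 and 0.21 had standard errors from 0.452 to 0.521 and did not pass.

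HDAC11 was lower after irradiation on both its tested probes. On the probe at position 953 the signal ran from 6.27 to 8.28 (median 7.23) before irradiation and was well above background on 7 of 7 arrays. It was so on 0 of 4 arrays at day 3, 0 of 6 at day 5 and 3 of 7 at day 7, and so passed the filter only through the pre-irradiation arrays, where it is high. Its adjusted p values support nothing by themselves. The day 3 arrays read 2.64, 2.80, 2.88 and 3.40, those of day 5 ran from 2.02 to 3.59 (median 2.88) and those of day 7 from 2.63 to 5.60 (median 4.11), all below the pre-irradiation arrays. On this probe alone HDAC11 was at least 5.03-fold lower at day 3 (adjusted p = 2.52e-05) and at least 5.43-fold lower at day 5 (adjusted p = 1.03e-06). At day 7 it was lower (adjusted p = 0.000402). The fitted log2 difference there, −2.94 (SE 0.47), is no measured size, for 4 of the 7 arrays were not well above background. Under the animal block the adjusted p was 0.00165, 0.000143 and 0.000341, and with the session as a block 0.00765 at day 3, which ended the call, and 0.00175 at day 5. With normexp background the fitted log2 differences were −0.80, −0.37 and −0.95 and none was called (adjusted p 0.244 to 0.556). At days 3 and 5 these fall short of the bounds given, which therefore hold for the scanner's own background only.

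The other tested HDAC11 probe, at position 250, moved the same way (Pearson r = 0.82 with the first). It ran from 6.30 to 8.68 (median 7.17) before irradiation. The day 3 arrays read 4.41, 5.08, 5.31 and 6.15, and those of day 5 ran from 5.15 to 5.88 (median 5.62), all below that range. It fell by 2.05 (SE 0.417, 4.14-fold, adjusted p = 0.00334) at day 3 and by 1.76 (SE 0.304, 3.39-fold, adjusted p = 0.000635) at day 5, with 3 of 4 and 5 of 6 arrays well above background. At day 7 it ran from 5.33 to 6.82, with 5 of 7 arrays below, and the difference of −1.20 did not pass (adjusted p = 0.012). With the animal as a block the day 3 change was −2.27 (adjusted p = 0.00884), and 1 of 7 fits without 1 animal kept the day 3 call. With normexp background the differences at days 3 and 5 were −0.57 and −0.17, and with the session as a block neither was called (adjusted p = 0.248 and 0.212). The third HDAC11 probe, at position 2814, was well above background on no array.

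Between the days after irradiation no deacetylase probe was called, beside 0.0184% of all probes for day 5 against day 3, 1.27% for day 7 against day 3 and 0.00369% for day 7 against day 5. At an adjusted p under 0.05, limma called 0, 2 and 1 of the 10 probes, beside 0.177%, 16% and 3.03% of all probes. The nearest was HDAC5, lower at day 7 than at day 3 by a log2 difference of −1.23 (SE 0.215, adjusted p = 0.00574), with all 7 day 7 arrays below all 4 day 3 arrays. HDAC5 at day 7 also lay below all 6 day 5 arrays (difference −0.88, adjusted p = 0.0294). HDAC7 at position 604 was higher at day 7 than at day 3 on all 7 arrays (difference 0.96, adjusted p = 0.0228). HDAC4 at position 3236 differed by −0.96 between days 7 and 5 (adjusted p = 0.0265).

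The day 7 response was compared between 4 males and 3 females, since only pre-irradiation and day 7 hold all 7 animals. No probe of any kind was called by limma at an adjusted p under 0.05 (0%, with 2355 of 27108 at an unadjusted p under 0.05). Among the deacetylases the HDAC4 probe at position 5047 had the lowest unadjusted p of the interaction (0.000715, adjusted p = 0.303). It was not well above background on any pre-irradiation array, so that no size of change is given for either sex. On those arrays the 4 males read 3.08 to 3.61 and the 3 females 4.38 to 5.13.

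For the deacetylases called on some day in their brightest probe, which leaves out HDAC6, the genes most like them over the 24 arrays are given as a description, for the groups themselves set much of the likeness. Of 10778 other genes, HDAC9 was closest to ZMAT2 (Pearson r = 0.955), SOX5 (0.952) and BANK1 (0.947). HDAC5 was closest to GRK2 (0.931), SEC14L1 (0.92) and PELI2 (0.916), and HDAC2 to ERGIC1 (0.906), CCR7 (0.895), a homing receptor of naive T cells, and PRPSAP1 (0.886). HDAC1 was closest to ZNF48 (0.895), SZRD1 (0.891) and GTF2H4 (0.889). HDAC11 was closest to GPR183 (0.882), a B and T cell migration receptor, PSMF1 (0.876) and RNF14 (0.87). HDAC4 was closest to MTMR3 (0.869), PJA2 (0.849) and ARIH1 (0.828).

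Calls among partners of the deacetylases are given by list, each gene in its brightest probe. They stand beside 5.96% higher and 7.6% lower of 11007 genes at day 3, 6.24% and 9.16% of 11010 at day 5, and 2.68% and 7.22% at day 7. The median log2 change of all genes was −0.01 on each day. The lists are small, and their shares lay above those of all genes in some and below in others. Of 14 SIN3 genes 0, 1 and 0 were called: ING1, a reader of methylated H3, fell by 0.83 at day 5 (adjusted p = 0.0037). Of 9 NuRD genes 0, 1 and 0 were called: MBD3 was lower at day 5 (adjusted p = 0.00109), where 4 of 6 arrays were well above background and the fitted log2 difference was −1.18. The median log2 change of the NuRD list was −0.49, −0.41 and −0.13, while that of the NCOR/SMRT list was 0.5, 0.71 and 0.22. Of 13 genes of CoREST and related scaffolds, GFI1B, a repressor of erythroid and platelet lineages, rose by 1.72 at day 3 and PHF21A by 1.18 at day 5 (adjusted p = 0.00231 and 0.00163). Of 5 NCOR/SMRT genes, TBL1X rose by 1.09 at day 3 and BCL6, a transcriptional repressor, by 1.25 at day 5 (adjusted p = 0.000628 and 0.00171).

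Of the 21 kinases and partners of class IIa enzymes, 3, 3 and 0 were called. CAMK4 fell by 1.59 at day 3, and PRKD3 fell by 1.23 and 0.82 at days 3 and 5, while CAMK1D rose by 1.24 and 0.94 and SIK3 rose by 0.90 at day 5 (adjusted p 0.000823 to 0.00189). These are kinases known to phosphorylate class IIa enzymes or related to such kinases. Of 17 HDAC6 partners and substrates 4, 3 and 2 were called. CTTN, cortactin, was higher at day 3, where the fitted log2 difference was 2.82 and only 4 of 7 pre-irradiation arrays were well above background. HSP90AB1, an HSP90 gene, fell by 0.92 at day 3. PRDX2, a peroxiredoxin of red cells, fell by 1.78 at day 5 and 2.15 at day 7. MYH9 rose at day 3 by 0.91, SQSTM1, a ubiquitin-binding adaptor, at day 5 by 0.64, and DYNC1H1 by 0.78 and 0.85 at days 5 and 7. All of these had adjusted p between 7.7e-05 and 0.00397.

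Of 17 lysine acetyltransferases, the enzymes that oppose deacetylases, 1, 3 and 0 were called, all higher: EP300 rose by 0.68 at day 3 and 0.86 at day 5, and CREBBP by 1.16 and NCOA3 by 1.08 at day 5 (adjusted p 0.000834 to 0.0045). Of 31 acetyl-lysine readers 1, 2 and 0 were called, BAZ2A rising by 1.47 and 1.5 at days 3 and 5 and BAZ1A by 0.88 at day 5 (adjusted p = 0.00228, 0.000254 and 0.00154). None of the 6 tested sirtuins, the NAD-dependent deacetylases, was called on any day. Their median log2 change was −0.37, −0.31 and −0.09.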

How the data were processed

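Blood RNA on 24 arrays was analysed from the authors' deposited scanner output, a processed signal given as intensity on a linear scale. Per the file headers the software (Agilent Feature Extraction 12.0.2.2; the labels name 10.7) subtracted a fitted spatial surface as background (it differed from the background used by 0 at most) and corrected gradients. The authors' deposited series matrix holds log2 intensity normalized to the median array; its 18497 matched probes served as an alternative. Here spots marked as outliers were left out, spots of a probe averaged, log2 taken and arrays shifted to the median array (shifts from −2.03 to 0.88). A probe was tested when the scanner software put it well above background on 4 or more arrays (27112 of 43603). In the median array 52.3%, 56.0%, 56.9% and 57.5% of probes were well above background before irradiation and at days 3, 5 and 7. Precision is limited by the number of arrays. Each day, and each pair of days, was compared by limma 3.58.1 in R 4.3.3 (statmod 1.5.0) in its own fit, two-sided, at an adjusted p under 0.005, and the sexes at day 7 by an interaction term at 0.05. Tables and figures were made with pandas 2.3.3, numpy 2.4.6 and matplotlib 3.10.9 under Python 3.11.15. The limma step was tested on simulated data.

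A gene with several probes is represented by its brightest. All probes of the members are named, and from each list of partners the 3 called genes with the largest absolute log2 change on each day. The members and gene lists were chosen with earlier results of these data known. Replicate numbers mark animals: with the group mean removed, same-numbered arrays had correlations of 0.133 to 0.409 (day 3), 0.171 to 0.458 (day 5) and 0.129 to 0.44 (day 7) against pre-irradiation, and medians for different numbers were negative. The removal of the group mean by itself makes these medians tend to be negative when same-numbered arrays correlate. Same-numbered pre-irradiation and day 7 arrays also share a slide, so that the day 7 correlations cannot separate animal from slide. Alternatives were 75th percentile and quantile normalization, normexp background (offset 50), the deposited matrix, no filter on dim probes and a stricter one, the animal as a block, slide and scan session as blocks, session 1 alone, all arrays in one fit, each animal left out and a threshold of 0.05. The slide as a fixed block and the omission of 1 dim day 7 array were added after seeing the data. Of the 6 description-named probes, the 4 tested are HDAC4 (2), HDAC9 (1) and HDAC10 (1).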

Additional observations from a re-analysis of the deposited data

Results flagged for a closer look

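One array of HDAC2 stood apart in its group. On the pre-irradiation array of replicate 1 the log2 signal was 10.54, and the other 6 arrays ran from 11.17 to 11.54, so that the gap took 0.634 of the range of the 7 arrays. It was 1 of 2 arrays found apart in 64 groups of arrays examined. Without animal 1 the log2 change of HDAC2 was −1.01 at day 3 (adjusted p = 0.00498 by limma), −1.06 at day 5 (0.000599) and −0.68 at day 7 (0.0179).

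The other was the day 7 array of replicate 2 for the probe described as HDAC3-like, outside the member rule. It read 4.15, and the other 6 day 7 arrays ran from 6.89 to 7.19, all above the highest pre-irradiation array (6.82), with a gap of 0.901 of the range. Without that array, left out after seeing the data, the day 7 log2 difference was 0.52 (adjusted p = 0.0328 by limma, not called) in place of 0.10 (adjusted p = 0.875). Replicate 2 at day 7 is also the array with the lowest median signal of the 24.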

How the results depend on the processing

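Of the 10 tested probes named as deacetylases, 5, 5 and 2 were called at days 3, 5 and 7. The percentages are the share called of all probes in the same fit. With normexp background 0, 0 and 0 were called (0.513%, 0.882% and 1.17%), with no filter on dim probes 3 and 3 at days 3 and 5 (6.31% and 9.84%), and with the scan session as a block 0 and 1 (0.137% and 1.42%). The slide as a fixed block (chosen after seeing the data) gave 0 at day 3 (0%), and the replicate block, that is the animal, gave 1 at day 3 (2.81%). At day 7 session 1 alone gave 1 (7.73%), all 24 arrays in one fit 4 (14.3%) and a threshold of 0.05 gave 5 (27.7%). Leaving out 1 animal gave 1 to 4 calls at day 3 (1 without replicate 2, 4 or 7, 2 without replicate 3, 3 without replicate 1 or 6, beside 3.19% to 12.9%), 3 to 5 at day 5 (3 without replicate 2 or 7, beside 10% to 15.9%) and 1 to 2 at day 7 (1 without replicate 1, 5, 6 or 7, beside 6.13% to 9.51%). Between days 7 and 3, 1 probe was called with the stricter filter (2.53%) or the slide as a random block (2.52%), 2 in the joint fit (8.03%) and 2 at a threshold of 0.05 (16%), which also gave 1 between days 7 and 5 (3.03%). The paired fit changed no other count of calls by more than 1.5 times among the 10 probes, and no probe was called between days under it. Omitting the dimmest day 7 array (replicate 2, chosen after seeing the data) left 2 calls at day 7 (9.95%). The cause of these moves was not tested.

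Each difference that changed sign had not passed the test in that comparison. At day 5, with normexp background, HDAC6 at position 4078 read −0.089 and HDAC7 0.318 (position 2671) and 0.275 (position 604). With no filter at day 5 HDAC3 read 0.22 and HDAC7 0.177 and 0.155. With the session block HDAC7 read 0.007 at day 3 and 0.195 and 0.246 at day 5. At day 7 HDAC5 read 0.049 after quantile normalization, HDAC4 at position 3236 read 0.208 with no filter, and HDAC10 ran from −0.265 to 0.521 when 1 animal was left out. With normexp HDAC11 read −0.147 between days 7 and 3 and −0.575 and −0.361 between days 7 and 5. The differences that passed against pre-irradiation kept their sign under every alternative run. The HDAC3-like probe read 0.074 and 0.427 at days 3 and 5 with normexp and 0.188 at day 5 with no filter. Depth of signal limits HDAC10, the second HDAC4 probe and HDAC11, which were near background in at least 1 group.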

Other observations

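Probes outside the member rule that describe a deacetylase gave these values. A probe described as HDAC3-like on chromosome 4 differed by −0.19, −0.11 and 0.10 on the log2 scale at days 3, 5 and 7 (adjusted p = 0.498, 0.696 and 0.875 by limma), the last with 1 dim array that lowers it from 0.52. A further HDAC1 copy on chromosome 11 was well above background on no array.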
